A study of Homo sapiens with 32 samples.

Results

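The U4 and U6 spliceosomal small nuclear RNAs were examined in a base-resolution map of N4-acetylcytidine (ac4C) from Hep3B cells, a human hepatocellular carcinoma line. The 9 genes were RNU4-1 and RNU4-2 (U4), RNU6-1, RNU6-2, RNU6-7, RNU6-8 and RNU6-9 (U6), and RNU4ATAC and RNU6ATAC, their counterparts in the minor spliceosome. They were chosen by a rule that had used these data: C>T changes had been seen after NaCNBH3 in RNU4-1 and RNU6-2 and had been read as not following NAT10. Comparisons of NaCNBH3 with mock libraries are therefore given as descriptions, and the counts of Fisher calls further down come from that same contrast and support nothing. The 5 U6 copies could not be told apart over bases 1 to 106 and were summed, which left 5 units among the 777 annotated genes with enough covered positions for a comparison of depth. All 9 genes had listed positions in all 32 libraries.

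NaCNBH3 reduces ac4C, and after reverse transcription with 2-amino-dATP some of the reduced bases are sequenced as T. A C>T share above that of a mock fraction of the same RNA is the readout of the method. The 6 NAT10-deficient genotypes carried endogenous NAT10, the RNA cytidine acetyltransferase, fused to a degron tag. FKBP cells had the tag alone and NAT10(-) cells the tag and a control plasmid. The other 4 also had an added NAT10 copy with the amino acid exchange of their name, which lay in the RNA helicase domain in K290A and E389L and in the GNAT (acetyltransferase) domain in H537A and G641E. The 2 NAT10-competent genotypes were the untagged parental Wildtype cells and NAT10-WT cells, which had the tag and an added unmutated copy. Added copies came from lentiviral vectors with an EF1A promoter, so their level was not that of the endogenous gene, and replicates of transduced cells were independent transductions. All 8 genotypes, controls included, were treated with dTAGV1, which degrades the tagged protein, at 100 nM over 24 h. Each genotype had 2 cultures, and the RNA of each culture gave 1 NaCNBH3 and 1 mock library.

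The files listed each position with at least 30 base calls, between 400119 and 3797803 positions per library, with a median depth of 49 to 169 calls per listed position. No position in any library exceeded 20049 calls, a limit that several U4 and U6 genes reached and that bears on their depth below. Each of 11 liver secretory genes had covered exonic positions in at least 1 library and 6 (ALB, APOA1, APOA2, APOB, SERPINA1 and TF) in all 32, while PTPRC, COL1A1, HBB and PECAM1, markers of other cell types, had none.

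U4 and U6 enter the spliceosome as a base-paired duplex. The helicase BRR2 unwinds it during activation, after which U6 pairs with the 5′ splice site and with U2 and holds the catalytic metal ions. Until then U4 keeps U6 inactive. U4 is made by RNA polymerase II and binds Sm proteins, whereas U6 is made by RNA polymerase III, ends in a run of uridines that its LSm ring binds, and is trimmed and extended at that end during maturation. U6 carries several ribose methylations and U4 fewer, guided by small RNAs of nucleoli and Cajal bodies. U4atac and U6atac play the same parts in the removal of minor-class introns.

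Positions and sequences are those of the GRCh38 (hg38) reference on the strand of each gene, with sequences written 5′ to 3′ with T for U and bases counted from 1 at the 5′ end. Every base is in an annotated exon, since each gene has 1 exon. RNU6-2 (chr19:1021522-1021628, plus strand), RNU6-1 (chr15:67839939-67840045, minus strand) and RNU6-9 (chr19:893484-893590, plus strand) are identical over all 107 bases, and RNU6-7 (chr14:32202045-32202151, plus strand) and RNU6-8 (chr14:32203163-32203269, minus strand) differ from them only in the last base. The catalytic ACAGAGA box lies at bases 41 to 47, a sequence held by 46.9% of the 1383 annotated snRNA transcripts of 100 to 150 bases, many of them U6 copies. The catalytic AGC triad lies at bases 53 to 55, 1 of 3 AGC matches in U6.

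The U4 genes are shown because 4 bases alone separate them, and on RNU4-1 these carried the highest mismatch shares of all 9 genes. The capitals mark those 4 bases.
RNU4-1, chr12:120293097-120293237, minus strand: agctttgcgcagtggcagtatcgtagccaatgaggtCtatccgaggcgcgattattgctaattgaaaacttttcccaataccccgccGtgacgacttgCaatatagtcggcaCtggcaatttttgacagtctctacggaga
RNU4-2, chr12:120291763-120291903, minus strand: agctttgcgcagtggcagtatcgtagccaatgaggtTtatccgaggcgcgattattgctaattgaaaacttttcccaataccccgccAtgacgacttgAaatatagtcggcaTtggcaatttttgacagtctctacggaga
The genes matched at 137 of 141 bases (97.2%). Written as the RNU4-1 base, its position and the RNU4-2 base, the differences are C37T, G88A, C99A and C113T. Complementary runs of at least 7 bases placed U4 bases 5 to 12 against U6 bases 63 to 70 and U4 bases 56 to 62 against U6 bases 50 to 56, the stems of the known duplex. Base 60 of U6 lies between the stems, and none of the 4 U4 differences lies in them. Runs of 7 bases were also found at U4 bases 18 to 24 and 117 to 123, which are not part of the known duplex. The Sm site AATTTTTG stood at bases 118 to 125 of both U4 genes and at bases 115 to 122 of RNU4ATAC, and 4.34% of the same snRNA transcripts held it.

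The minor-spliceosome RNAs are shown because they share the layout of U4 and U6 but little of the sequence, with 54.4% identity of RNU4ATAC to RNU4-2 and 52.8% of RNU6ATAC to RNU6-2 over a global alignment. The capital marks C7, the base of RNU4ATAC with the highest mismatch share.
RNU4ATAC, chr2:121530881-121531007, plus strand: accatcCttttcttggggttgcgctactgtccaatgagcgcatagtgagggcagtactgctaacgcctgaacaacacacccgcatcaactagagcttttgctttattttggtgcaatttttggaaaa
RNU6ATAC, chr9:134164439-134164564, minus strand: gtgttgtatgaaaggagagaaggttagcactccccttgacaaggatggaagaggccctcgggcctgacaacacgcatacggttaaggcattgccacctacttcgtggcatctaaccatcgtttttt
C7 lies within a run of 8 complementary bases, bases 2 to 9 of RNU4ATAC against bases 41 to 48 of RNU6ATAC.

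Outside a few bases the U4 and U6 RNAs were read almost without mismatch. The median share of non-reference bases over all bases of the 5 units was 0.0497% in NaCNBH3 and 0.0321% in mock libraries, each base averaged over 16 libraries. Mock libraries exceeded 1% at 9 bases (1.40%), against 1969 of 139906 positions (1.41%) with a mean depth of at least 1000 calls in the whole series. These 9 bases were bases 2, 60 and 72 of U6, bases 37, 65, 88, 99 and 113 of RNU4-1 and base 7 of RNU4ATAC. Neither RNU4-2 nor RNU6ATAC had such a base.

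**Figure D1:**
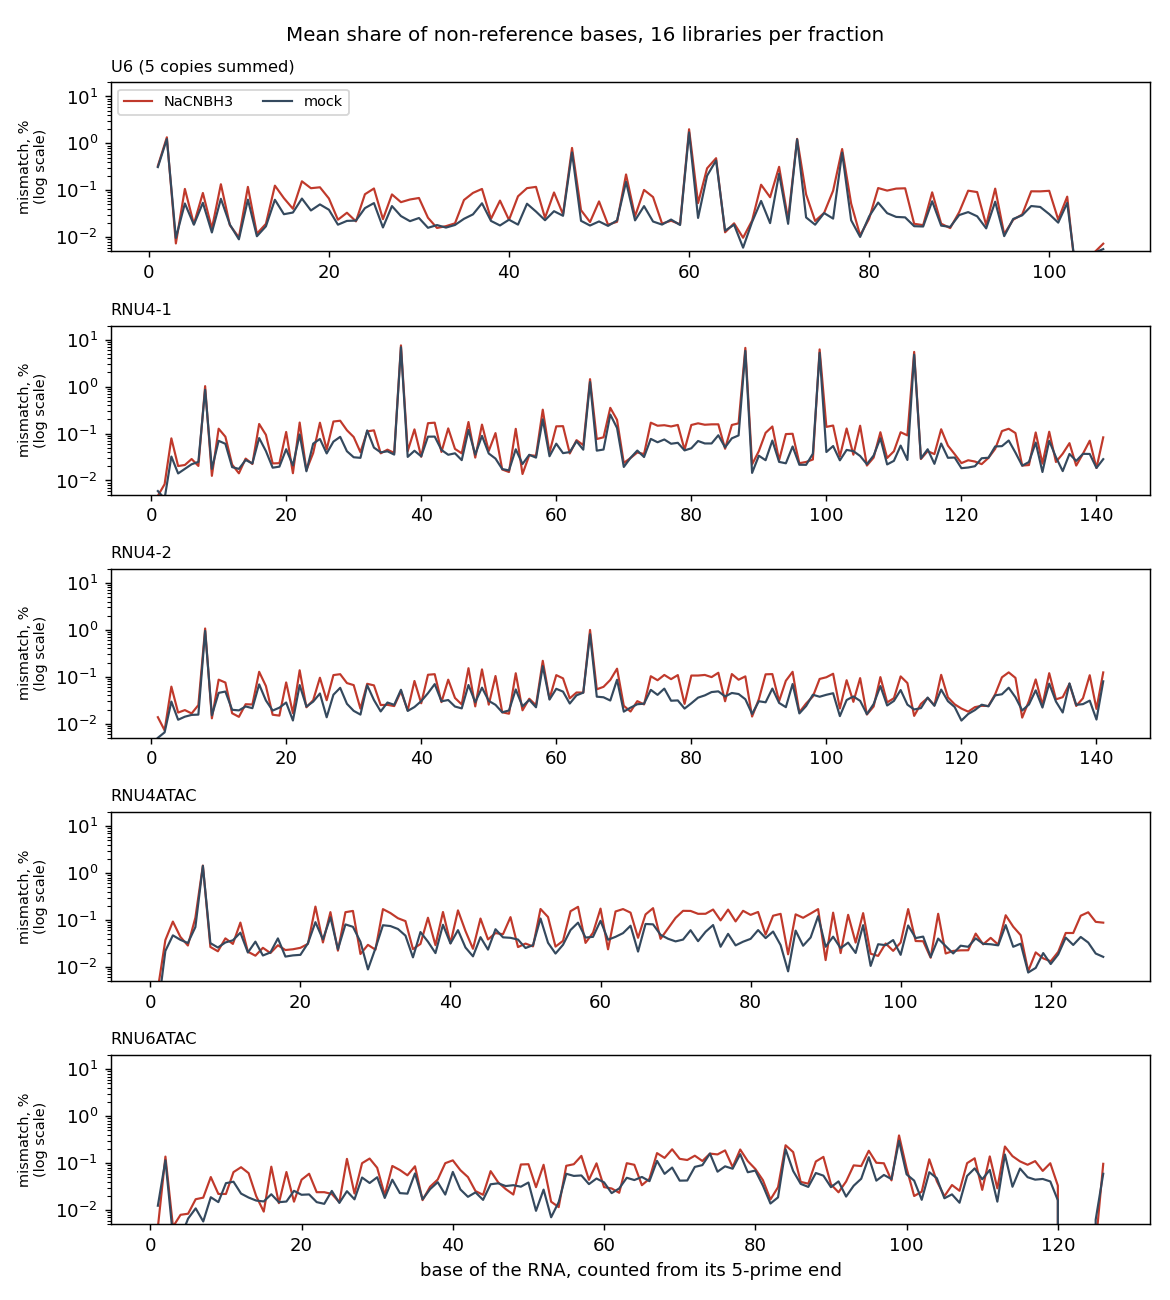
Mean share of non-reference bases (percent, log axis) at each base of the 5 units, averaged over 16 NaCNBH3 libraries (red) and 16 mock libraries (dark). Isolated peaks stand at bases 47, 60, 72 and 77 of U6, at bases 8 and 65 of both U4 genes, at the 4 paralog bases of RNU4-1 and at base 7 of RNU4ATAC.

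Several of the U6 peaks stood at bases known to be methylated in the human RNA. As background, A47, C60, C62, C63 and C77 are ribose-methylated and G72 carries a methyl group on its base. C60 had a mismatch share of 2.00% in NaCNBH3 and 1.72% in mock libraries, G72 of 1.25% and 1.22%, A47 of 0.800% and 0.641%, and C77 of 0.758% and 0.636%. C62 and C63 were lower, with C>T shares of 0.263% ± 0.034 and 0.358% ± 0.034 in NaCNBH3 libraries and 0.176% ± 0.031 and 0.313% ± 0.025 in mock libraries (SD, n = 16 each). At C60 the mismatches were mostly T (1.40% ± 0.09 in NaCNBH3 and 1.18% ± 0.10 in mock libraries), with G next at 0.560% ± 0.079 and 0.499% ± 0.049. At G72 they were mostly A, at 0.942% ± 0.083 in NaCNBH3 and 0.914% ± 0.077 in mock libraries. G54, also ribose-methylated, had no such peak, with a mismatch share of 0.0281% in NaCNBH3 and 0.0229% in mock libraries. Nor did A43, which carries N6-methyladenosine, with 0.118% and 0.0353%. A53 had 0.218% and 0.152%, and A70 had 0.317% and 0.226%.

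Base 2 of U6, a peak outside these methylated bases, varied between replicates. Its T>A share spanned 0.0453% to 1.74% in NaCNBH3 and 0.0463% to 1.49% in mock libraries, and the lowest values in both fractions were those of K290A replicate 1. The share was higher in replicate 2 than in replicate 1 in both fractions of every genotype except H537A, where the mock libraries had 0.526% in replicate 1 and 0.484% in replicate 2. It was higher after NaCNBH3 in 8 of 16 cultures. A T>G share of 0.556% ± 0.540 in NaCNBH3 and 0.498% ± 0.389 in mock libraries (SD, n = 16 each) came with it.

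The U4 genes shared peaks at C8 and A65, both known ribose methylation sites of human U4. The C8 C>T share was 0.964% ± 0.106 in NaCNBH3 and 0.807% ± 0.128 in mock libraries for RNU4-1, and 1.01% ± 0.13 and 0.885% ± 0.108 for RNU4-2. A65 was read as T at 1.204% ± 0.135 in NaCNBH3 and 1.07% ± 0.13 in mock libraries for RNU4-1, and at 0.813% ± 0.079 and 0.664% ± 0.098 for RNU4-2 (SD, n = 16 libraries each). Neither base differs in sequence between the genes. Whether the methyl groups gave these mismatches was not tested.

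C>T at U6 C60 was higher in the NaCNBH3 library than in the mock library of all 16 cultures, in NAT10-deficient and NAT10-competent genotypes alike. In replicates 1 and 2, the NaCNBH3 share was 1.497% and 1.453% in FKBP cells, against 1.13% and 1.18% in their mock libraries. NAT10(-) cells had 1.49% and 1.29%, against 1.16% and 1.17% in mock. Among the helicase mutants, K290A had 1.38% and 1.30%, against 1.02% and 1.18%, and E389L had 1.30% and 1.35%, against 1.012% and 1.201%. NaCNBH3 was thus the higher in both replicates of each of these 4 genotypes.
The acetyltransferase mutant H537A had 1.33% and 1.48%, against 1.28% and 1.42% in mock, the narrowest gaps. G641E had 1.39% and 1.28%, against 1.26% and 1.08%. Wildtype cells had 1.48% and 1.52%, against 1.16% and 1.26% in mock, and NAT10-WT cells had 1.521% and 1.396%, against 1.204% and 1.161%. The difference of NaCNBH3 minus mock was 0.204 ± 0.117 percentage points in the 12 deficient cultures and 0.282 ± 0.041 in the 4 competent ones (SD), with a range of 0.046 to 0.371 over all 16. The competent cultures lay inside the range of the deficient ones. The 95% Wilson intervals of single libraries were 0.0666 to 0.0852 percentage points to either side and cover counting error only, and the 5 copies can share reads.

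**Figure D2:**
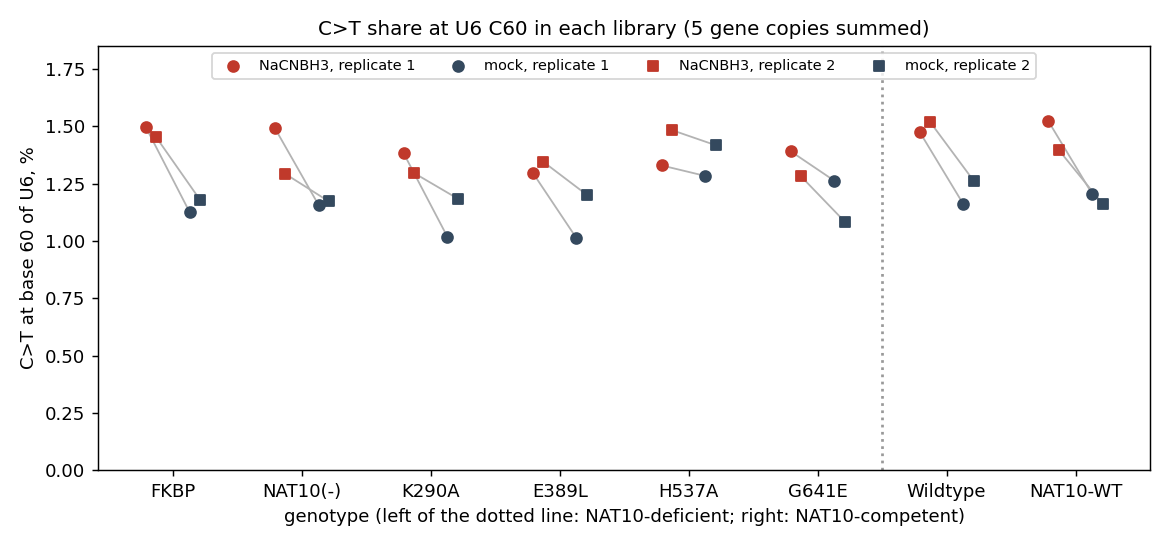
C>T share (percent) at base 60 of U6, 5 gene copies summed, in each of 32 libraries by genotype, with NaCNBH3 (red) left of mock (dark), circles for replicate 1, squares for replicate 2 and a line joining the libraries of 1 culture. Every line runs downward to the mock library, and the shallowest are those of H537A, at 0.046 and 0.066 percentage points.

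The 5 copies did not give the same level at C60. RNU6-1 had 1.602% ± 0.117 in NaCNBH3 and 1.33% ± 0.12 in mock libraries, and RNU6-9 had 1.57% ± 0.11 and 1.35% ± 0.14. RNU6-2 had 1.39% ± 0.14 and 1.12% ± 0.15, and RNU6-7 had 1.29% ± 0.19 and 1.11% ± 0.13. RNU6-8 was lowest, with 1.02% ± 0.15 in NaCNBH3 and 0.879% ± 0.136 in mock libraries (SD, n = 16 libraries each). In NaCNBH3 libraries the copies stood in the same order by C60 and by G72, and the A share in mock libraries was 1.24% ± 0.11 on RNU6-1 and 0.496% ± 0.092 on RNU6-8. C60 was higher after NaCNBH3 in 16 of 16 cultures on RNU6-2, in 15 on RNU6-1 and RNU6-9, and in 12 on RNU6-7 and RNU6-8. The bases around C60 and G72 are identical in all 5 copies.

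The C>T calls on RNU4-1 came at paralog bases. Calls placed on RNU4-1 showed the RNU4-2 base at each of the 4 differing positions, in 99.7% of the mismatches at C37, 99.5% at G88, 98.2% at C99 and 99.7% at C113. The RNU4-2 base made up 7.54% ± 2.68 of calls in NaCNBH3 and 6.89% ± 2.84 in mock libraries at base 37, 6.64% ± 0.99 and 5.75% ± 0.70 at base 88, 6.06% ± 0.81 and 5.19% ± 0.58 at base 99, and 5.47% ± 0.88 and 4.77% ± 0.54 at base 113 (SD, n = 16). At 2 of the 4 positions the exchange is a C>T, and at the others it is G>A and C>A.
The gap between NaCNBH3 and mock was 0.649 ± 1.16 and 0.698 ± 0.595 percentage points at the C>T bases 37 and 113. It was 0.890 ± 0.620 at the G>A base and 0.871 ± 0.628 at the C>A base. NaCNBH3 was the higher in 12 and 14 of 16 cultures at the C>T bases, and in 16 and 15 at the G>A and C>A bases. The reverse exchange was rare: calls placed on RNU4-2 showed the RNU4-1 base at 0.0460% ± 0.0239 at base 37 and at 0.0142% to 0.0188% at the other positions (means over 32 libraries). The placement of reads between the genes as a source was not tested.

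**Figure D3:**
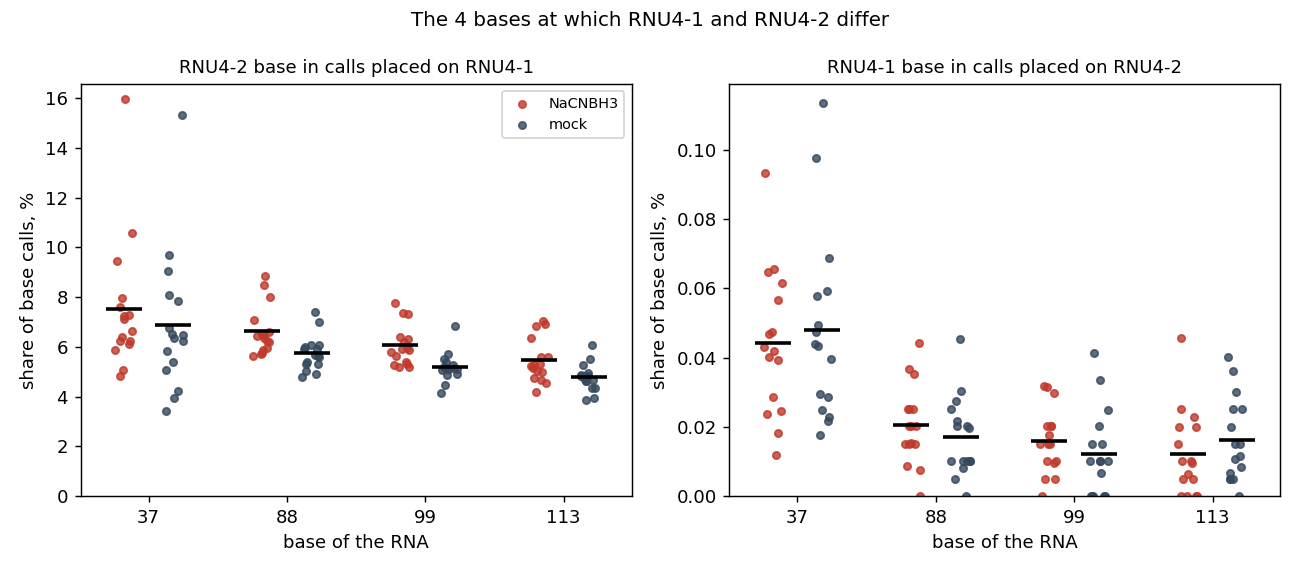
Share of base calls (percent) that showed the other gene's base at the 4 positions where RNU4-1 and RNU4-2 differ, with a point for each library, a bar for the mean, and NaCNBH3 (red) left of mock (dark). On RNU4-1 (left panel) all 4 positions lie between 3.43% and 15.95%, while on RNU4-2 (right panel, smaller scale) the means lie under 0.05%.

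Base 37 varied more than the other paralog bases, and 1 culture stood far above the rest. K290A replicate 1 had 15.95% C>T in NaCNBH3 and 15.3% in mock libraries, whereas K290A replicate 2 had 5.87% and 7.86%. The next highest were FKBP replicates 1 and 2, with 9.45% and 10.6% in NaCNBH3 and 9.03% and 9.68% in mock libraries. Wildtype was lowest, with 4.82% and 5.07% in NaCNBH3 and 3.94% and 3.43% in mock libraries. Base 113 was flatter in mock libraries, between 3.88% and 6.07%. The shares at bases 88, 99 and 113 moved together over the 32 libraries (Pearson r of 0.831 to 0.948 over libraries that share cultures), and that at base 37 less so (r of 0.498 to 0.715). Depth limits also touched these genes, since RNU4-2 reached 19000 calls in 22 libraries and RNU4-1 in 8.

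C7 of RNU4ATAC was the base of the minor-spliceosome RNAs with a mock share above 1%. It was read as T at 1.40% ± 0.47 in NaCNBH3 and 1.38% ± 0.49 in mock libraries (SD, n = 16 each), and higher after NaCNBH3 in 10 of 16 cultures. K290A replicates 1 and 2 had 2.18% and 2.34% in NaCNBH3 and 2.56% and 2.29% in mock libraries. FKBP replicate 1 had 2.24% in NaCNBH3 and 1.90% in mock libraries, and all other libraries were at or below 1.75%. The intervals of single libraries were 0.310 to 0.579 percentage points to either side, since RNU4ATAC was covered less deeply than U4.

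Small increases of C>T after NaCNBH3 were general. Of 149 cytosines in the 5 units with a mean depth of at least 1000 calls, 148 (99.3%) had a higher mean C>T share in NaCNBH3 than in mock libraries, with a median difference of 0.0594 percentage points. Of 43951 such cytosines in the series 97.5% were higher, with a median of 0.0517 points and an interquartile range of 0.0393 to 0.0643. The share of cytosines higher in all 16 cultures was 28.2% for the U4 and U6 units and 19.6% for all. It was 75% in U6 (5 copies summed), 38.7% in RNU4-2, 23.5% in RNU4-1, and 6.67% in both RNU4ATAC and RNU6ATAC. Depth differed between these units and was not matched to that of the series. By unit the median difference was 0.0551 points for U6, 0.0740 for RNU4-1, 0.0580 for RNU4-2, 0.0720 for RNU4ATAC and 0.0484 for RNU6ATAC. A difference over 0.2 points was seen at 3 of the 149 (2.01%), C113 and C37 of RNU4-1 and C60 of U6, and at 0.667% of all cytosines. The genes were chosen on such changes in RNU4-1 and RNU6-2, so nothing is read from the higher share. C37 and C113 are also paralog bases, with smaller gaps than the G>A and C>A paralog bases. Among all cytosines, 245 of 43951 had a larger difference than C60 of U6, which put it at the 99.4th percentile. This rank is in percentage points and takes no account of the level in mock libraries. C60 had 1.40% in NaCNBH3 and 1.18% in mock libraries, whereas the medians over all cytosines were 0.0965% and 0.0431%.
After C113, C37 and C60, the next in size were C8 of RNU4-1 at 0.157, C8 of RNU4-2 at 0.123, C77 of U6 at 0.121 and C77 of RNU4ATAC at 0.119 points. NAT10 acts on a CCG sequence in known targets. The middle cytosines of the 6 CCG matches in these RNAs (3 in RNU4-1, 2 in RNU4-2 and 1 in RNU4ATAC) had differences of 0.0488 to 0.0973 points with a median of 0.0728, and the other 143 cytosines had a median of 0.0587. U6 and RNU6ATAC hold no such cytosine, so theirs are all among the other 143. In RNU4-1 the CCG values were 0.0649, 0.0775 and 0.0816 points, around the unit median of 0.0740. In RNU4-2 they were 0.0488 and 0.0682, around 0.0580, and in RNU4ATAC 0.0973, above 0.0720. These are means over deficient and competent cultures together, and whether they follow NAT10 was not tested.

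Adenines were also read differently. Over the 5 units together, A>T calls made up 0.0801% ± 0.0094 of calls at A in NaCNBH3 and 0.0312% ± 0.0021 in mock libraries, and A>G calls 0.0274% ± 0.0023 and 0.0194% ± 0.0011. Both were higher after NaCNBH3 in 16 of 16 cultures. C>T over all cytosines of the units was 0.222% ± 0.021 in NaCNBH3 and 0.156% ± 0.014 in mock libraries, again higher in 16 of 16. This includes the paralog bases C37 and C113 of RNU4-1. C>T was 0.519% and 0.414% in RNU4-1, against 0.124% and 0.0663% in RNU4-2. T>C over the 5 units was 0.0187% ± 0.0025 and 0.0184% ± 0.0025, higher in 11 of 16.

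With the thresholds of the study's methods, of which the comparison of NaCNBH3 with mock alone was applied and here in all 8 genotypes (at least 30 calls in both libraries, at least 5 mismatch calls and a share over 1% in either, Fisher's exact test adjusted p under 0.05 in both replicates), 3 U4 and U6 positions were called higher in NaCNBH3 in at least 1 genotype, each in 1 of the 8 genotypes tested. These were C37 of RNU4-1 in Wildtype, and C113 of RNU4-1 and C60 of U6 in NAT10-WT, the last through RNU6-2 alone of the 5 copies. Of the C>T positions tested in the whole series, 4.7% were called in FKBP, 3.68% in NAT10(-), 3.74% in K290A, 3.7% in E389L, 4.4% in H537A, 3.7% in G641E, 8.74% in Wildtype and 10.9% in NAT10-WT. The 6 deficient genotypes called 0 of 4 or 5 tested U4 and U6 positions, Wildtype 1 of 4 and NAT10-WT 2 of 4. These counts restate the contrast on which the genes were chosen, so nothing is read from them, and the difference between genotypes in it was not tested.

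The rule did not use differences between genotypes in mock libraries alone, and mock mismatch shares were compared between the 6 deficient and the 2 competent genotypes with limma. No U4 or U6 position of the 9 tested passed an adjusted p of 0.05, against 2.88% of 3822 positions in the series, and 1 of the 9 had an unadjusted p under 0.05. That was base 37 of RNU4-1, with 7.59% ± 2.92 in 12 deficient and 4.89% ± 1.37 in 4 competent mock libraries (log2 odds ratio 0.64 ± 0.22 SE, adjusted p = 0.198 by limma, and 0.549 to 0.730 leaving out a library). Its C>T share in mock libraries was 3.94% and 3.43% in Wildtype, 5.85% and 6.22% in NAT10-WT and 6.355% and 6.77% in NAT10(-) cells. The NAT10-WT libraries lay inside the deficient range of 4.225% to 15.3%, whose highest value was K290A replicate 1. The other paralog bases differed less, with log2 odds ratios of 0.20 at base 88, 0.10 at base 99 and 0.03 at base 113. C60 of U6 had 1.71% ± 0.16 in deficient and 1.75% ± 0.03 in competent libraries (log2 odds ratio -0.04 ± 0.10 SE, adjusted p = 0.901 by limma). Base 2 of U6 had a log2 odds ratio of -0.86 ± 0.56 SE (adjusted p = 0.566 by limma), which was -0.284 without NAT10-WT replicate 2 and -1.44 without NAT10-WT replicate 1, with 1.05% ± 0.72 in deficient and 1.81% ± 1.22 in competent libraries.

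Depth could be read for some of these genes only. RNU6-2 and RNU6-9 had a median depth of 19866 to 19950 calls in all 32 libraries, so their level was a bound and not a measure. RNU6-1 reached the limit in its 3′ part in every library but thinned out toward its 5′ end, with a median of 19949 calls at base 90, 14470 at base 60, 1278 at base 30 and 60 at base 7. RNU6-2 kept 19483 calls or more at each of these bases. RNU6-7 reached 19000 calls in 6 libraries, RNU4-1 in 8 and RNU4-2 in 22. RNU6-8, with a median of 10746 calls, and both minor-spliceosome RNAs stayed under the limit throughout, at 3843 calls for RNU4ATAC and 4597 for RNU6ATAC (medians over 32 libraries of the median over bases).

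**Figure D4:**
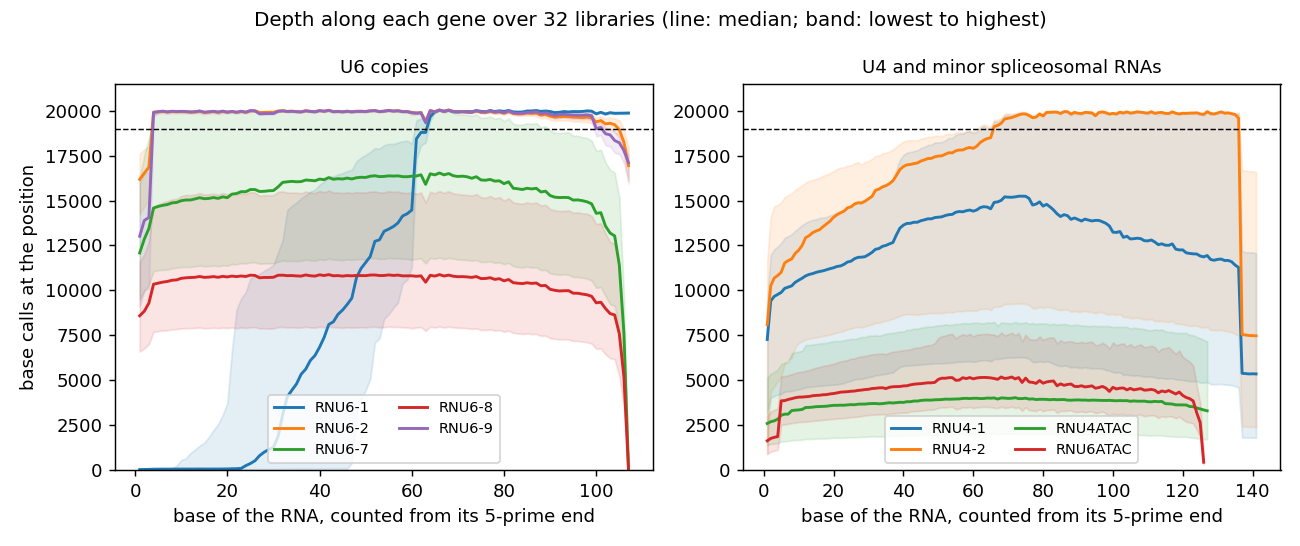
Depth (base calls) along each gene, with the U6 copies in the left panel and U4, RNU4ATAC and RNU6ATAC in the right panel. Lines give the median and bands the range over 32 libraries, and the dashed line marks 19000 calls. RNU6-2 and RNU6-9 lie flat at the limit, and RNU4-1 and RNU4-2 drop after base 136.

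The U4 profile ended in a step. On RNU4-1 the depth at base 137 was 41.9% of that at base 136 (median of 32 libraries, range 34.0% to 61.4%), and on RNU4-2 it was 38.2% (27.5% to 83.8%). By genotype the RNU4-1 medians were 41.6% in 24 deficient and 43.4% in 8 competent libraries, and the ranges overlapped. The RNU4-2 medians were 37.2% in deficient (27.5% to 58.4%) and 50.7% in competent libraries (31.4% to 83.8%), and these ranges overlapped too. At base 136 RNU4-2 had a median of 19578.5 calls over the 32 libraries, above 19000, and RNU4-1 reached 19000 in some libraries. A limited depth at base 136 raises the share at base 137. The RNU4-2 gap between deficient and competent libraries can therefore not be read as a difference at the RNA end.

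RNU6-9 stood apart from the other U6 copies beyond its annotated end, where its genomic sequence continues in T. The 12 bases that follow the end of each copy are shown because calls there depend on them, with capitals for the bases that had calls in all 32 libraries.
RNU6-9, chr19:893591-893602, plus strand: TTTTttttttcc
RNU6-2, chr19:1021629-1021640, plus strand: gctgtagtctac
RNU6-1, chr15:67839927-67839938, minus strand: acatcaggttgt
RNU6-7, chr14:32202152-32202163, plus strand: cgcggttcaacg
RNU6-8, chr14:32203151-32203162, minus strand: cgcagtctgtca
The median depth of RNU6-9 was 8237 calls at the first of these bases, 5680 at the second, 1947 at the third and 411 at the fourth, and no library listed the fifth. RNU6-1 and RNU6-2 had a listed position only at the first base, in 19 and 12 libraries and with at most 54 and 85 calls. RNU6-7 had none, and RNU6-8 had such bases in 4 libraries at most, with at most 41 calls. As background, the enzyme TUT1 adds uridines to the 3′ end of U6 and USB1 trims them, and reads with added uridines would match only the copy that encodes them. Whether added or encoded uridines gave these calls was not tested.

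The length of this extension differed between cultures more than between fractions. The third base had 28.9% of the depth of the first in NAT10(-) replicate 1 and 22.9% in replicate 2 after NaCNBH3, against 27.9% and 21.7% in mock libraries. K290A was low, with 17.4% and 11.4% in NaCNBH3 and 17.2% and 12.98% in mock libraries, and FKBP replicate 1 was highest with 39.96% in NaCNBH3 and 38.4% in mock. Over genotypes the mock values were 12.98% to 38.4% in 12 deficient libraries, with a median of 22.9%, and 18.8% to 28.75% in 4 competent libraries, with a median of 27.2%. The competent libraries lay within the range of the deficient ones. Replicate 2 was below replicate 1 in both fractions of every genotype except in Wildtype NaCNBH3 libraries, with 28.07% in replicate 2 and 27.76% in replicate 1.

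Scaled depth was then compared between genotypes, with libraries set to a common median over the 777 features and the 2 libraries of a culture averaged. None of the 5 units was called in any of 3 contrasts by limma at an adjusted p of 0.05. Over all features, 0.772% were called in the deficient against competent contrast, 0% in NAT10(-) against NAT10-WT and 1.16% in helicase against GNAT mutants, and the counts at an unadjusted p under 0.05 were 118, 0 and 138. With the replicate number as a block, 18 features were called in the deficient against competent contrast in place of 6, and 29 in helicase against GNAT mutants in place of 9. Depth per position in a culture cannot tell fewer cells with an RNA from less RNA per cell.

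RNU4ATAC gave a difference near 0. Its scaled depth in replicates 1 and 2 was 3649 and 3350 calls per position in FKBP, 3389 and 3351 in NAT10(-), 2911 and 4893 in K290A, 2737 and 4003 in E389L, 3141 and 3911 in H537A, and 4448 and 4624 in G641E cells, against 3727 and 4482 in Wildtype and 2878 and 3360 in NAT10-WT cells. The competent cultures lay within the range of the deficient ones. The log2 difference was 0.03 ± 0.17 SE (adjusted p = 0.941 by limma).

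RNU6ATAC spread more widely, and 7 of 12 deficient cultures lay below the lowest competent one. It had 3596 and 3296 calls in FKBP, 4132 and 3673 in NAT10(-), 2165 and 4221 in K290A, 2841 and 6138 in E389L, 5315 and 6812 in H537A, and 5243 and 6056 in G641E cells, against 6342 and 6104 in Wildtype and 4491 and 5310 in NAT10-WT cells. The log2 difference of deficient minus competent was -0.38 ± 0.21 SE (adjusted p = 0.442 by limma). With 2 cultures on either side, NAT10(-) minus NAT10-WT gave a log2 difference of -0.33 ± 0.37 SE (adjusted p = 0.998 by limma). Between domains, 4 helicase mutant cultures had a lower mean than 4 GNAT mutant cultures (log2 difference -0.71 ± 0.26 SE, adjusted p = 0.185 by limma), and E389L replicate 2 overlapped with the GNAT mutants. The same contrast was -0.07 ± 0.22 SE when libraries were scaled by their total base calls. That scale put the median over all features at 0.631 in place of -0.0129, so RNU6ATAC stayed below it.

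**Figure D5:**
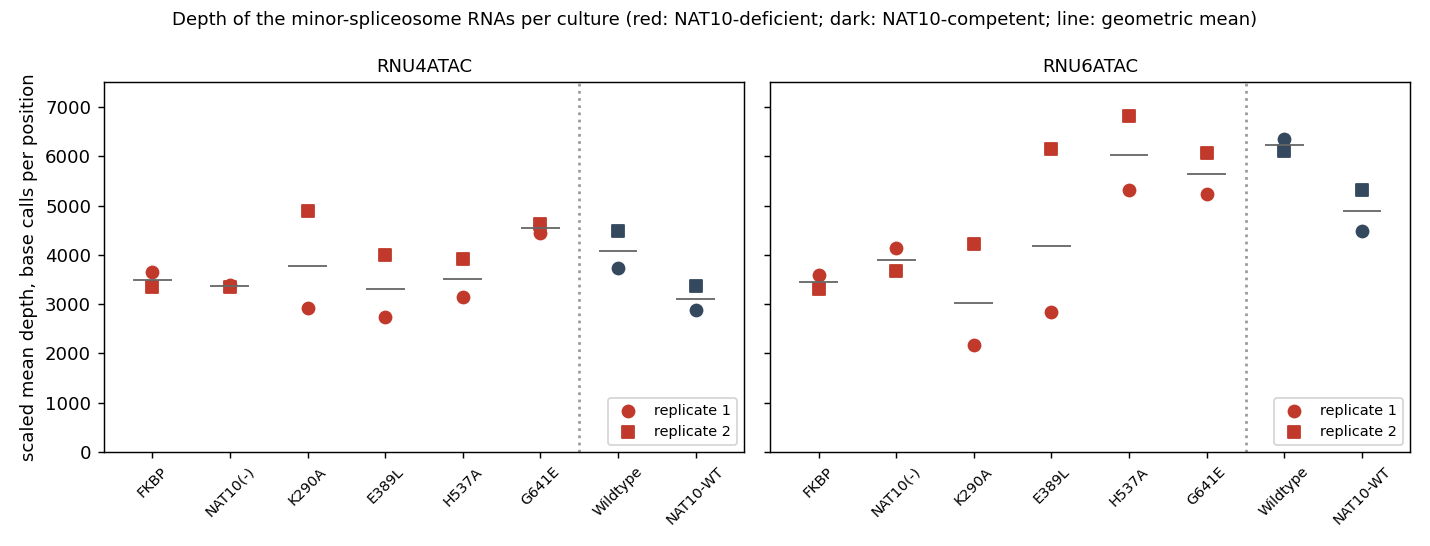
Scaled mean depth (base calls per position) of RNU4ATAC (left) and RNU6ATAC (right) in 16 cultures, with NAT10-deficient genotypes in red and NAT10-competent genotypes in dark to their right, circles for replicate 1, squares for replicate 2 and lines for geometric means. Deficient RNU6ATAC values span 2165 to 6812 calls, around the competent range of 4491 to 6342.

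For U4 and U6 themselves the depth limit bounded the contrasts. Before scaling, the mean depth of summed U6 spanned 14582 to 16676 calls over 32 libraries, a ratio of 1.14, while the scaling factors of the same libraries spanned 0.4997 to 2.145. Scaled depth is depth divided by these factors, so that of a gene held at the limit varies with them alone, and they averaged 1.42 in helicase and 0.727 in GNAT mutant libraries. In the helicase against GNAT contrast the log2 difference was -0.81 ± 0.31 SE for U6 (adjusted p = 0.187), -0.82 ± 0.24 for RNU4-1 (adjusted p = 0.137) and -0.86 ± 0.21 for RNU4-2 (adjusted p = 0.070). Without E389L replicate 2, U6 (log2 difference -1.17), RNU4-2 (-1.02) and RNU6ATAC (-0.99) passed, and without K290A replicate 2, RNU4-2 passed. Without E389L replicate 1 the differences were -0.455 for U6, -0.70 for RNU4-2 and -0.435 for RNU6ATAC, and none passed. With the replicate number as a block RNU4-2 passed (adjusted p = 0.038 by limma). With total base calls as the scale it was -0.22 ± 0.26 SE, against a median of 0.631 over all features on that scale. RNU6-8, the copy that stayed under the limit, gave -0.60 ± 0.28 SE (adjusted p = 0.283 by limma) in a fit added after the data were seen.
In deficient against competent genotypes the differences were -0.19 ± 0.26 SE for U6, -0.48 ± 0.20 for RNU4-1 (adjusted p = 0.278) and -0.19 ± 0.17 for RNU4-2. In NAT10(-) against NAT10-WT they were -0.46 ± 0.44, -0.24 ± 0.34 and -0.18 ± 0.30.

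The share of RNU4-1 among U4 calls, read from the 4 paralog bases, was nearly constant where both genes stayed under the limit. It lay between 36.4% and 37.65% with a median of 37.2% in the 10 such libraries, which were replicate 2 libraries of E389L, G641E, H537A, K290A, NAT10(-) and NAT10-WT cells. In the 22 libraries where RNU4-2 reached 19000 calls it spread over 34.7% to 48.0%. No FKBP or Wildtype library was under the limit, so those genotypes cannot be set beside the others by this share.

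The partners of U4 and U6 were listed with the genes. Of 13 major spliceosomal snRNAs other than U4 and U6, 11 were tested, and 0 passed in deficient against competent genotypes (median log2 difference -0.17, against -0.04 over all features) and 0 in NAT10(-) against NAT10-WT (median -0.46, against -0.03). In helicase against GNAT mutants 2 were called lower and 0 higher, against 1.16% of all features called (median -0.87, against -0.01). The other 9 reached 19966 calls or more, so their scaled depth, and the median of the list with it, was bound by the scaling factors. The 2 called lower were RNU5F-1 and RNU5D-1, variants of U5, which joins U4/U6 in the tri-snRNP. RNU5F-1 had 116 to 407 calls per position in 4 helicase and 677 to 744 in 4 GNAT mutant cultures (log2 difference -1.48 ± 0.21 SE, adjusted p = 0.0047 by limma). RNU5D-1 had 1785 to 7420 in helicase and 5505 to 9806 in GNAT mutant cultures (log2 difference -1.22 ± 0.24 SE, adjusted p = 0.022 by limma). Both stayed under the depth limit, and no feature was called when libraries were scaled by total base calls.
Of 6 minor spliceosomal and other snRNAs, RNU4ATAC and RNU6ATAC among them, 4 were tested and 0 called. Coverage of mRNAs was thin: 0 of 16 tri-snRNP protein genes were tested, 2 of 7 Sm protein genes (SNRPB and SNRPD2) and 1 of 15 LSm and U6 maturation genes (LSM7), and 0 of these 3 were called in any contrast.

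Over the 16 cultures, the features outside the U4 and U6 families with scaled depth most like summed U6 were RNA5-8SN2, RNU5E-1, RNU5A-1, RNU1-27P and RNU1-2 (Pearson r of 0.997 to 0.998), all of which reached 19751 calls or more. Those most like RNU4-2 were RNA5S9, RMRP, ENSG00000286171, SNORD3C and RNVU1-31 (r of 0.834 to 0.866), and all but RNA5S9 also reached the limit. Among the units themselves, RNU6ATAC moved with U6 (r = 0.903) and RNU4-2 with RNU4-1 (r = 0.846), and RNU4ATAC moved least with RNU4-1 (r = 0.136). These are descriptions over cultures that share the scaling factors.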

How the data were processed

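Libraries of 32 samples, made from total RNA after a partial removal of ribosomal RNA, were grouped by the genotype, treatment and replicate in their labels. The deposited files hold raw counts of A, T, C and G per position and strand. To make these counts the authors trimmed reads, removed duplicates by molecular identifier, aligned to GRCh38 and counted a pileup, and the submitters' processing notes name STAR 2.7.9a, SAMtools 1.6, cutadapt 4.2 and UMI-tools 1.1.5. How reads that match several copies were placed is not given in the sources used here, and the pileup limit near 20049 calls flattens deep genes.

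Genes were taken from GENCODE v44 on hg38, and every reference base of the 9 genes matched. Depth features had at least 20 exonic positions in all 32 libraries, were scaled by median ratios, averaged per culture and fitted on log2 values with limma 3.58.1 under R 4.3.3. Mock mismatch odds used 0.5 added to counts, at least 30 calls in all 16 mock libraries and a mean share over 1%. P-values were adjusted by Benjamini-Hochberg over all features or positions. NaCNBH3 and mock libraries of a culture were compared by two-sided Fisher's exact tests (scipy 1.17.1). Both tests were tested on simulated data.

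Members and lists were chosen with earlier results of these data known. Named positions were cytosines called after NaCNBH3, positions over 5% mismatch in mock libraries, and the 5 features most like U6 and RNU4-2, and other positions were named after their values were seen. The labels give the replicate number as a batch. Over 28 pairs of genotypes the replicate differences in depth correlated at -0.159 to 0.806 (median 0.283), and those in mock mismatch at 0.0146 to 0.440. The sequence of U6 is not reported here.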

Additional observations from a re-analysis of the deposited data

How the results depend on the processing

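None of the 5 units was called in deficient against competent genotypes or in NAT10(-) against NAT10-WT under any alternative, and no U4 or U6 position in the mock mismatch contrast. In helicase against GNAT mutants 0 units were called, 1 (RNU4-2) with the replicate block, and 0 to 3 when a culture was left out (3 without E389L replicate 2, 1 without K290A replicate 2). The pairing by replicate number changed no other call of these units. C>T positions called after NaCNBH3 numbered 3, but 29 with a minimum share of 0.1%, and 3 to 5 when called in 1 replicate alone (5 without replicate 2). They numbered 2 when every copy had to be called. A limma fit of treatment over all genotypes together, with each culture as a block, called 3. There C8 of RNU4-2 was called and C37 of RNU4-1 was not (adjusted p = 0.047 and 0.103 by limma). These counts use the contrast on which the genes were chosen and are descriptions.

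Over all features, 6 were called in deficient against competent genotypes, against 18 with the replicate block, 10 with at least 50 positions, 14 among features under the depth limit (an alternative chosen after seeing the data), 1 in mock or in NaCNBH3 libraries alone, 0 with total base calls or the highest depth, and 0 to 36 leaving out a culture. In helicase against GNAT mutants 9 were called, against 29 with the block, 0 with total base calls and 2 to 64 leaving out a culture. The mock mismatch contrast called 110 positions, and 43 to 185 leaving out a library. Scaling by total base calls moved the median of all features by 0.109, 0.326 and 0.644 (log2) in the 3 depth contrasts.

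With that scale, NAT10(-) minus NAT10-WT became 0.0897 for RNU4-1, 0.1445 for RNU4-2 and 0.00037 for RNU6ATAC, and helicase minus GNAT became 0.47 for RNU4ATAC. Leaving out a culture turned the sign of uncalled values: RNU4ATAC ran between -0.0352 and 0.0978 in deficient minus competent and between -0.361 and 0.0135 in helicase minus GNAT. In NAT10(-) minus NAT10-WT, RNU4-1 ran between -0.634 and 0.161 and RNU4-2 between -0.445 and 0.0811. Log2 odds ratios ran between -0.0458 and 0.115 at base 113 of RNU4-1 and between -0.0689 and 0.351 at base 7 of RNU4ATAC. The causes were not tested. Depth is limited near 20049 calls in U6 and U4, and 2 cultures a genotype limit every contrast.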
